A study of Mus musculus with 10 samples.

Results

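The 8 homeostatic microglia identity genes Tmem119, Cx3cr1, Siglech, Fcrls, Olfml3, Selplg, Gpr34 and Sall1 were taken by gene name from the deposited expression table, which lists 55401 genes. All 8 were found, each in 1 row, and all 8 lay above the expression filter in all 10 libraries, so none entered the test through 1 group alone. The libraries held total RNA of mouse cerebral cortex, from 5 mice with traumatic brain injury (TBI) and from 5 controls. Sample titles name the controls Sham and the design text of the series names them naïve, so whether they had surgery is not settled. Strain, sex, age, injury model and time after injury are not given in the sources used here. No allele or agent is named for either group.

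Microglia are the resident macrophages of the brain. Transforming growth factor beta (TGF-beta) and the receptor Csf1r maintain them in the undisturbed adult brain, where they carry a set of genes that sets them apart from other macrophages. Published work on mouse disease and injury describes a shift in which genes of that set are lowered and genes of a damage-associated state are raised. In whole tissue, the number of cells of a type and the amount of RNA per cell cannot be told apart, so each value below is the level of a transcript in cortex and not in a microglial cell.

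Of the 8 genes, 5 were higher in TBI, 0 were lower and 3 did not pass (edgeR quasi-likelihood test, Benjamini-Hochberg adjusted p under 0.05 over 16316 tested genes). Over all tested genes, 3.57% were called higher and 0.472% lower, 4.04% together. Fcrls, Gpr34, Cx3cr1, Tmem119 and Sall1 rose, by 3.0-fold for Fcrls and by 1.53-fold for Sall1 at the ends. Siglech, Selplg and Olfml3 did not pass, and each had a higher mean in TBI. The count of lower genes was also 0 in DESeq2 and limma and at an unadjusted p under 0.05. The median log2 change of the 8 was 0.77, against -0.01 over all tested genes. In the 5 genes that rose every TBI library was above every Sham library, a separation with TBI on top that 5.6% of all tested genes showed and with TBI below in 0.729%.

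**Figure D1:**
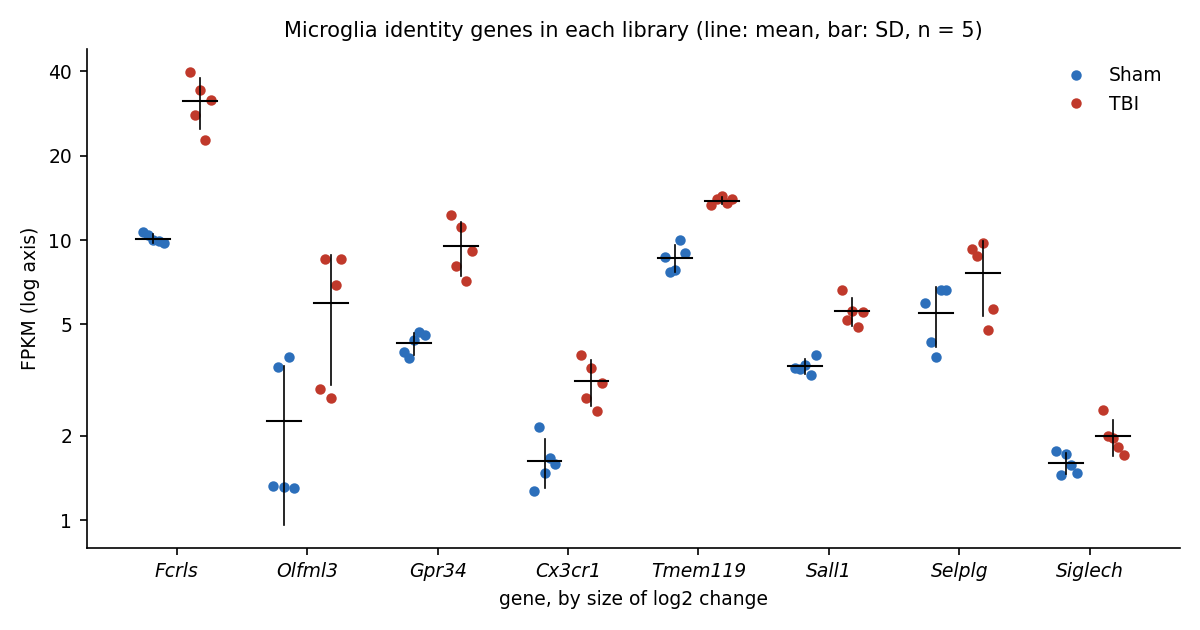
FPKM (fragments per kilobase and per megafragment, log axis) of the 8 genes in each of the 5 Sham and 5 TBI libraries, with the mean as a line and the SD as a bar. Fcrls, Gpr34, Cx3cr1, Tmem119 and Sall1 have no overlap between the groups, while Olfml3 spreads 2.96-fold within Sham and 3.13-fold within TBI.

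Fcrls (ENSMUSG00000015852, mm10 chromosome 3, 87250758 to 87263738), an Fc receptor-like scavenger receptor used as a marker of resident microglia in the mouse, had the largest change. Its FPKM was 39.8, 27.9, 34.3, 22.7 and 31.7 in TBI replicates 1 to 5 and 10.7, 10.4, 10, 9.88 and 9.79 in Sham replicates 1 to 5. The Sham libraries lay within 1.09-fold of each other, and the lowest TBI library was above all of them. The log2 change was 1.59 (approximate SE 0.13, edgeR adjusted p = 0.00025). Gpr34 (ENSMUSG00000040229, chromosome X, 13632089 to 13640858), a G protein-coupled receptor for lysophosphatidylserine, stood at 12.3, 8.07, 11.1, 7.16 and 9.17 FPKM in TBI and at 3.99, 3.78, 4.38, 4.68 and 4.57 FPKM in Sham. Here too no library of one group reached the other, and the rise was 2.17-fold (log2 change 1.12, approximate SE 0.15, edgeR adjusted p = 0.0016). Gpr34 lies within the span of Cask on the opposite strand, and strand use in counting is not given in the sources used here. Cask stood between 6.24 and 7.48 FPKM over the 10 libraries, with means of 6.67 in TBI and 6.82 in Sham.

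Cx3cr1 (ENSMUSG00000052336, chromosome 9, 119901616 to 120068296) encodes the receptor for the neuronal chemokine fractalkine. Its level was 3.90, 2.74, 3.49, 2.46 and 3.10 FPKM in TBI replicates 1 to 5 and 1.27, 2.15, 1.47, 1.67 and 1.59 FPKM in Sham replicates 1 to 5. The groups did not overlap, though Sham replicate 2 came close to TBI replicate 4. The change was 1.87-fold (log2 0.91, approximate SE 0.16, edgeR adjusted p = 0.0081). One annotated transcript of Cx3cr1 runs across neighbouring genes, among them Wdr48 (8.98 FPKM in TBI and 9.20 in Sham) and Gorasp1 (8.18 and 7.76 FPKM).

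Tmem119 (ENSMUSG00000054675, chromosome 5, 113793729 to 113800516) encodes a transmembrane protein that is widely used to tell microglia from infiltrating macrophages. It was at 13.3, 14, 14.3, 13.6 and 14 FPKM in TBI and at 8.67, 7.71, 7.79, 9.98 and 8.98 FPKM in Sham. The TBI libraries were nearly level with each other, with a coefficient of variation of 2.79% against 20.7% for Fcrls in the same libraries, and all lay above Sham. Tmem119 rose 1.56-fold (log2 change 0.64, approximate SE 0.08, edgeR adjusted p = 0.0009). Sall1 (ENSMUSG00000031665, chromosome 8, 89027235 to 89044162), a zinc-finger transcription factor that maintains microglial identity, was at 6.62, 5.2, 5.59, 4.89 and 5.55 FPKM in TBI and at 3.49, 3.46, 3.57, 3.30 and 3.89 FPKM in Sham. Its groups were separate as well, with a rise of 1.53-fold (log2 change 0.61, approximate SE 0.09, edgeR adjusted p = 0.0022).

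Siglech (ENSMUSG00000051504, chromosome 7, 55768178 to 55778925), a sialic acid-binding lectin that signals through the adaptor Tyrobp, had the smallest change. Its FPKM was 2.48, 1.99, 1.96, 1.83 and 1.71 in TBI and 1.77, 1.45, 1.72, 1.58 and 1.47 in Sham. The lowest TBI library lay within the Sham range, and the other 4 lay above the highest Sham library. The log2 change was 0.28 with an approximate 95% interval from 0.02 to 0.53 (edgeR unadjusted p = 0.039, adjusted p = 0.29). The upper end of that interval is a rise of 1.45-fold, so the missed call does not show that Siglech was level.

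Selplg (ENSMUSG00000048163, chromosome 5, 113818536 to 113830501), the mucin-like ligand of P-selectin, was at 9.26, 8.75, 9.75, 4.76 and 5.65 FPKM in TBI and at 5.97, 4.31, 3.83, 6.63 and 6.61 FPKM in Sham. TBI replicates 1, 2 and 3 were above every Sham library, and TBI replicates 4 and 5 lay within the Sham range. The log2 change was 0.44 (approximate 95% interval from -0.06 to 0.95, edgeR adjusted p = 0.41). Olfml3 (ENSMUSG00000027848, chromosome 3, 103722222 to 103738001), a secreted olfactomedin-domain glycoprotein, had the second largest change and the widest interval of the 8. It was at 2.93, 8.52, 2.74, 6.92 and 8.58 FPKM in TBI and at 1.32, 3.52, 1.31, 3.83 and 1.30 FPKM in Sham. In each group the values sat on separate levels: 3 Sham libraries were between 1.30 and 1.32 FPKM and the others at 3.52 and 3.83, while TBI replicates 1 and 3 were below 3 FPKM and the others at 6.92 or more. The log2 change of 1.36 had an approximate 95% interval from 0.37 to 2.34, with an unadjusted p of 0.012 and an adjusted p of 0.16 in edgeR. A spread within both groups at least as wide as that of Olfml3 was found in 2.48% of the 14082 tested genes that averaged 1 FPKM or more. Its part in the missed call was not tested.

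**Figure D2:**
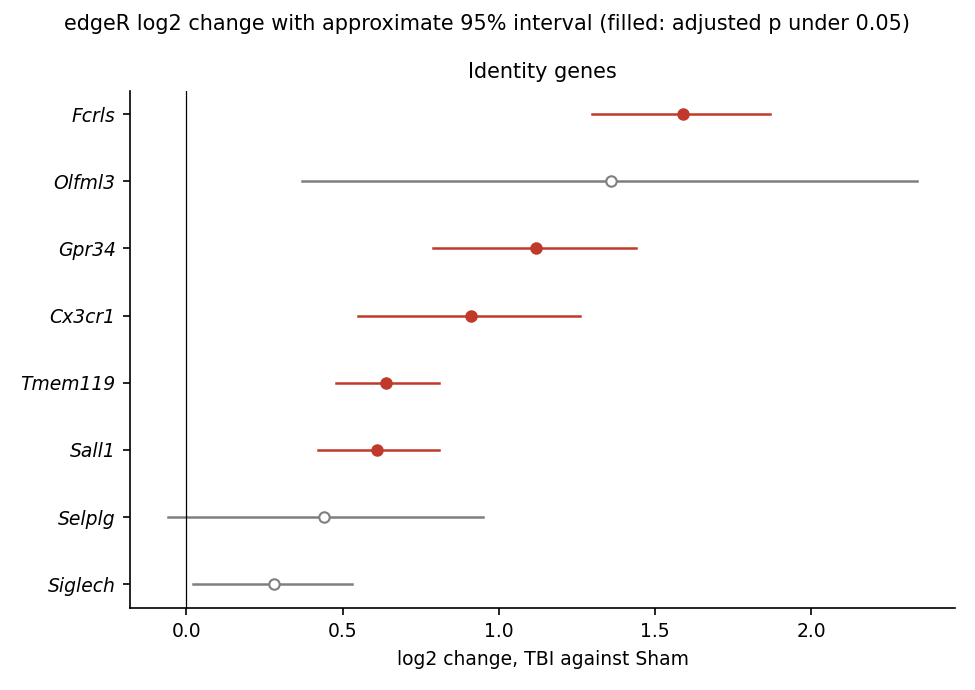
Log2 change from Sham to TBI (edgeR) with its approximate 95% interval for the 8 identity genes; filled points passed at an adjusted p under 0.05. Of the 8, Olfml3 has the widest interval, from 0.37 to 2.34, and the interval of Selplg alone reaches below 0.

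The stretch around the start of transcription is shown for the genes at the ends of the range, Fcrls and Siglech, because microglial genes are known targets of the transcription factor PU.1 (gene Spi1), whose binding motif holds GAGGAA. The RefSeq promoter table (GRCm38.p6, the assembly of mm10) gives 250 bases before to 50 after its own start, and it matched 5 of the 8 genes. Capitals mark GAGGAA, or its reverse complement where the motif is on the other strand. The Fcrls stretch is chr3:87263475-87263774 (minus strand) and the Siglech stretch chr7:55767934-55768233 (plus strand), each written 5′ to 3′ along the gene.
Fcrls: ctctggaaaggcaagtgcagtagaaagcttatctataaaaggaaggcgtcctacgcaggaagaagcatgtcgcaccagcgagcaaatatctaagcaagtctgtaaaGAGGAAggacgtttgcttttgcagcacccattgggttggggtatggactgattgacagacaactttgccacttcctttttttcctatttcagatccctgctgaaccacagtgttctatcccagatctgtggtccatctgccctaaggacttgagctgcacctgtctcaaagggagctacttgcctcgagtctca
Siglech: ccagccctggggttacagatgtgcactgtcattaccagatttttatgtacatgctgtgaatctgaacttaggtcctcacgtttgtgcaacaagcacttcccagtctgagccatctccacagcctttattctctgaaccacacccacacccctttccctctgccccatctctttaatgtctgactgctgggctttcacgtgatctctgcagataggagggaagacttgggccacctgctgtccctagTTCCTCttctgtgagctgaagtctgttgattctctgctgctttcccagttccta
Fcrls held 1 match on its own strand, with its first base at position -144 from the RefSeq start. Siglech held 1 on the opposite strand beside its start. The Fcrls span given above begins, on the minus strand, at 87263738, which lies upstream of the RefSeq start. By that span the Fcrls match lies inside the gene. Cx3cr1, Olfml3 and Sall1 held no match in their windows. The motif, on either strand, was found in 28.3% of the 32851 promoter windows of the table, so a match in 2 of 5 genes is a description of these letters only.

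A call in one gene and none in another does not show that they changed differently, so the ratio of each pair of genes within a library was compared between the groups (log2(FPKM + 1), exact two-sided permutation test over every split of the 10 libraries into 5 and 5). Of 28 pairs, 12 passed at a Benjamini-Hochberg p under 0.05 over the pairs, and 9 of these passed under every unpaired alternative tried. Fcrls rose more than Siglech, by 1.31 on the log2 scale, and more than Selplg, Sall1, Tmem119, Cx3cr1 and Gpr34, by 1.11, 0.98, 0.88, 0.86 and 0.53. For each of these 6 pairs all 5 TBI ratios were above all Sham ratios, with an exact p = 0.0079, the smallest this design can give, and p = 0.022 over the pairs. Gpr34 rose more than Siglech, by 0.78, and more than Sall1, by 0.45, and Sall1 rose more than Siglech, by 0.33, each with the same permutation p.

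The other 3 passing pairs were lost under some alternatives. Gpr34 against Cx3cr1 (0.33) did not pass with a pseudocount of 0.1 (p = 0.16 over the pairs, exact permutation test) or on log2 CPM (p = 0.29). Gpr34 against Selplg (0.58) and Tmem119 against Siglech (0.43) had p = 0.037 over the pairs in the exact permutation test. Of these, Gpr34 against Selplg did not pass without TBI replicate 1, 3, 4 or 5 or Sham replicate 1, 2, 4 or 5 (p up to 0.074), and Tmem119 against Siglech did not pass without TBI replicate 3, 4 or 5 or Sham replicate 1, 2, 3 or 5 (p up to 0.063). Gpr34 against Tmem119 (0.35) did not pass (p = 0.063 over the pairs, exact permutation test), and it passed at 0.044 both with a pseudocount of 0.1 and on log2 CPM. Cx3cr1 against Tmem119 (0.02) and Tmem119 against Sall1 (0.10) did not pass (p = 0.91 and 0.42 over the pairs, exact permutation tests). The first of these depended on the scale: the difference, written as Tmem119 against Cx3cr1, was -0.22 with a pseudocount of 0.1 and -0.26 on log2 CPM, where it did not pass either. No pair with Olfml3 passed, the ratio of Olfml3 to Fcrls having an SD of 0.91 in TBI. Fcrls and Gpr34 stood above Siglech and Sall1 in the size of their change, while the place of Olfml3 could not be set.

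**Figure D3:**
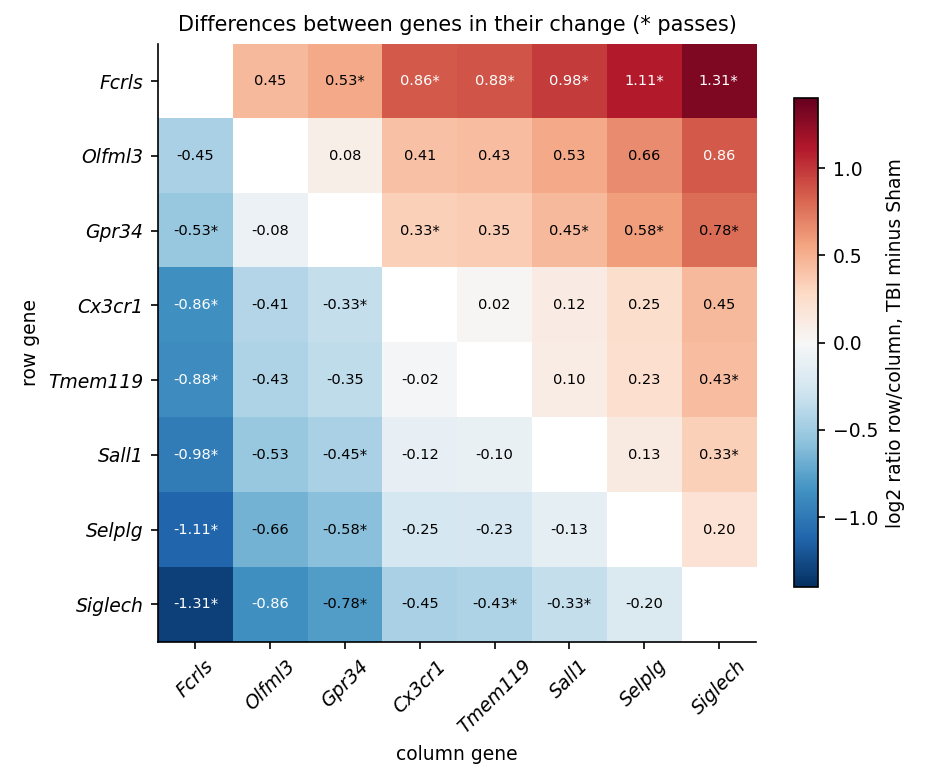
Difference between TBI and Sham in the within-library log2 ratio of the row gene to the column gene, log2(FPKM + 1); an asterisk marks a pair with p under 0.05 over the 28 pairs (exact permutation test). The row of Fcrls is positive throughout, from 0.45 against Olfml3 to 1.31 against Siglech. On log2 CPM the value of Fcrls against Olfml3 was 0.19.

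The order of levels changed little between the groups. In Sham the mean FPKM ran from Fcrls (10.1 ± 0.372, SD, n = 5) and Tmem119 (8.63 ± 0.937) through Selplg (5.47 ± 1.31), Gpr34 (4.28 ± 0.384), Sall1 (3.54 ± 0.220) and Olfml3 (2.26 ± 1.30) to Cx3cr1 (1.63 ± 0.325) and Siglech (1.60 ± 0.143). Of neighbours in this order, only Tmem119 and Selplg had ranges that did not overlap. In TBI it ran from Fcrls (31.3 ± 6.48) and Tmem119 (13.8 ± 0.386) through Gpr34 (9.54 ± 2.10), Selplg (7.63 ± 2.27), Olfml3 (5.94 ± 2.91) and Sall1 (5.57 ± 0.651) to Cx3cr1 (3.14 ± 0.576) and Siglech (1.99 ± 0.292). There the ranges of Fcrls, Tmem119 and Gpr34 were separate from each other, and Cx3cr1 was separate from Sall1, while Cx3cr1 and Siglech overlapped by 1 library each.

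These levels depend on the length used. The ratio of counts to FPKM showed that the deposited FPKM divides by the merged length of all annotated exons of a gene, such as 6163 bases for Olfml3 against 6161 in the GENCODE M21 annotation. For Fcrls, Gpr34, Cx3cr1, Tmem119 and Sall1 that length is at most 1.03 times the longest coding transcript. It is 2.30 times that transcript for Selplg and 1.47 times for Siglech. Divided by the longest coding transcript instead, the Sham mean of Selplg would be 12.6 FPKM and the highest of the 8, against 10.4 for Fcrls. The edgeR changes between groups, taken on counts, do not depend on this length. Values on the log2(FPKM + 1) scale do, through the added 1.

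Within TBI, the library order of Fcrls was found in 4 of the 8 identity genes, Fcrls itself counted, all of them among the 5 that rose. The order was taken from these same values, so the shares below describe them only. Fcrls, Gpr34, Cx3cr1 and Sall1 were highest in TBI replicate 1, followed by replicates 3, 5, 2 and 4. The same order was found in 9 of 13 tested pan-microglia and macrophage genes and in 9 of 15 damage-associated genes, against 1.53% of all tested genes and 16.5% of those called higher. It was found in 1 of 18 other homeostatic microglia genes and in 2 of 10 microglial transcription factors. Tyrobp, the signalling adaptor of several microglial receptors, ran from 5.07 times its Sham mean in TBI replicate 1 to 2.57 times in TBI replicate 4. Fcrls ran from 3.93 to 2.23 times and Sall1 from 1.87 to 1.38 times over the same libraries. Tmem119 kept between 1.54 and 1.65 times its Sham mean and was lowest in TBI replicate 1. Siglech was highest in TBI replicate 1 at 1.55 times and lowest in TBI replicate 5 at 1.07 times. TBI replicates 1 to 5 held 47.6, 70.5, 69.3, 51.5 and 62.1 megacounts, and the part of library size in this order was not tested.

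**Figure D4:**
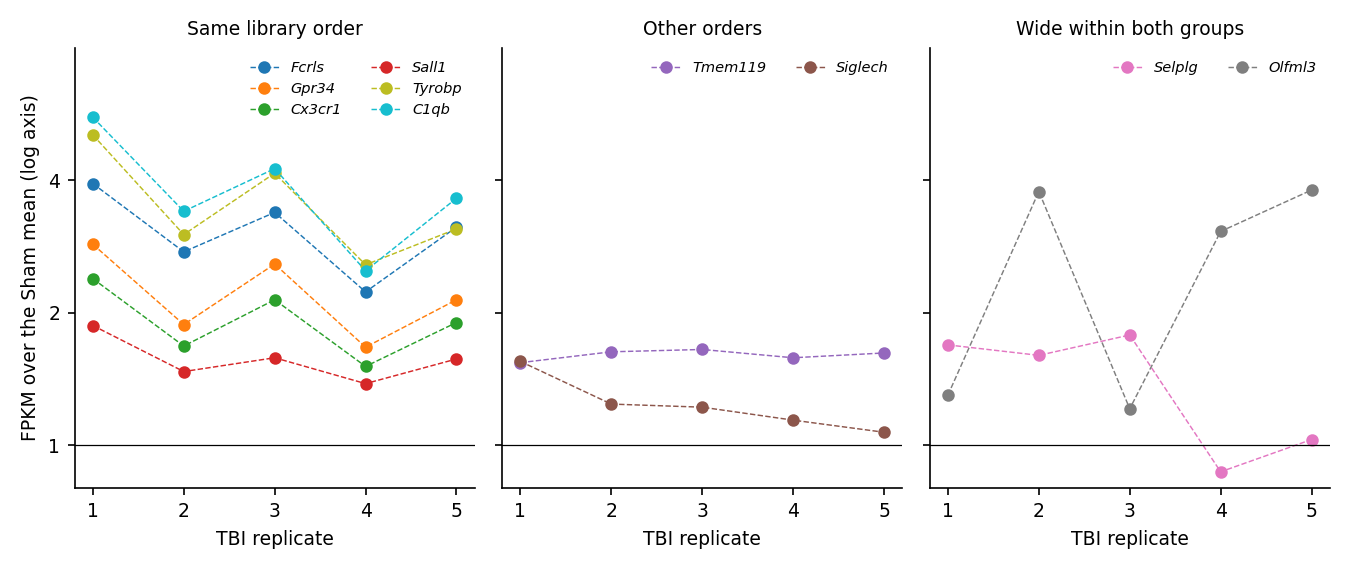
FPKM of each gene in the 5 TBI libraries divided by its Sham mean (log axis); dashed lines join the values of 1 gene and give no order of the libraries. Fcrls, Gpr34, Cx3cr1, Sall1, Tyrobp and C1qb share their order of libraries, while Tmem119 stays between 1.54 and 1.65 and Olfml3 is at 1.21 to 3.8.

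Of 18 other homeostatic microglia genes, all tested, 11 were higher, 0 were lower and 7 did not pass, with a median log2 change of 0.77 and a range from -0.07 to 2.10. The share called higher over all tested genes was 3.57%, and this list was chosen with earlier results of these data known. Csf1r, the receptor for Csf1 and Il34, rose from 13.8 ± 0.731 to 31.4 ± 4.40 FPKM (SD, n = 5, edgeR adjusted p = 0.00025). The largest change was in the inhibitory receptor Lag3, from 2.59 ± 0.667 to 11.4 ± 2.63 FPKM, and the sialic acid-binding receptor Cd33 went from 1.02 ± 0.0772 to 2.46 ± 0.469 FPKM. P2ry12, a purinergic receptor named here after its values were seen, was at 17.0, 10.9, 9.33, 16.6 and 7.20 FPKM in TBI and at 13.4, 11.0, 14.8, 10.9 and 12.1 FPKM in Sham. Its TBI values lay on both sides of the Sham range, and the log2 change was -0.07 (adjusted p = 0.93). Leaving out TBI replicate 3 or 5 or Sham replicate 3 gave 0.01, 0.08 and 0.01.

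Of 14 genes shared by microglia and other macrophages, the 13 tested rose, with a median log2 change of 1.74 and a range from 1.19 to 1.91. Ptprc, the other one, was below the filter, at 0.557 ± 0.116 FPKM in TBI and 0.184 ± 0.0314 in Sham. The complement subunit genes C1qa, C1qb and C1qc rose 3.61-, 3.77- and 3.60-fold, and Tyrobp, which pairs with Siglech, rose 3.48-fold from 15.6 ± 0.865 to 55.8 ± 15.8 FPKM (edgeR adjusted p = 0.00035). Of the 8 identity genes, Fcrls (1.59) and the uncalled Olfml3 (1.36) had log2 changes within that range. Of 16 damage-associated genes 15 were tested and 14 rose, with a median of 1.43. Over all tested genes 3.57% were called higher. Both lists were chosen with earlier results of these data known, so their counts are a description only. Cst7 went from 0.0575 ± 0.0596 to 8.51 ± 4.39 FPKM, its Sham level resting on 22 counts over 5 libraries, and Clec7a from 0.0689 ± 0.0386 to 4.28 ± 2.00 FPKM. Gpnmb and Lgals3 rose 17.5- and 17.4-fold.

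**Figure D5:**
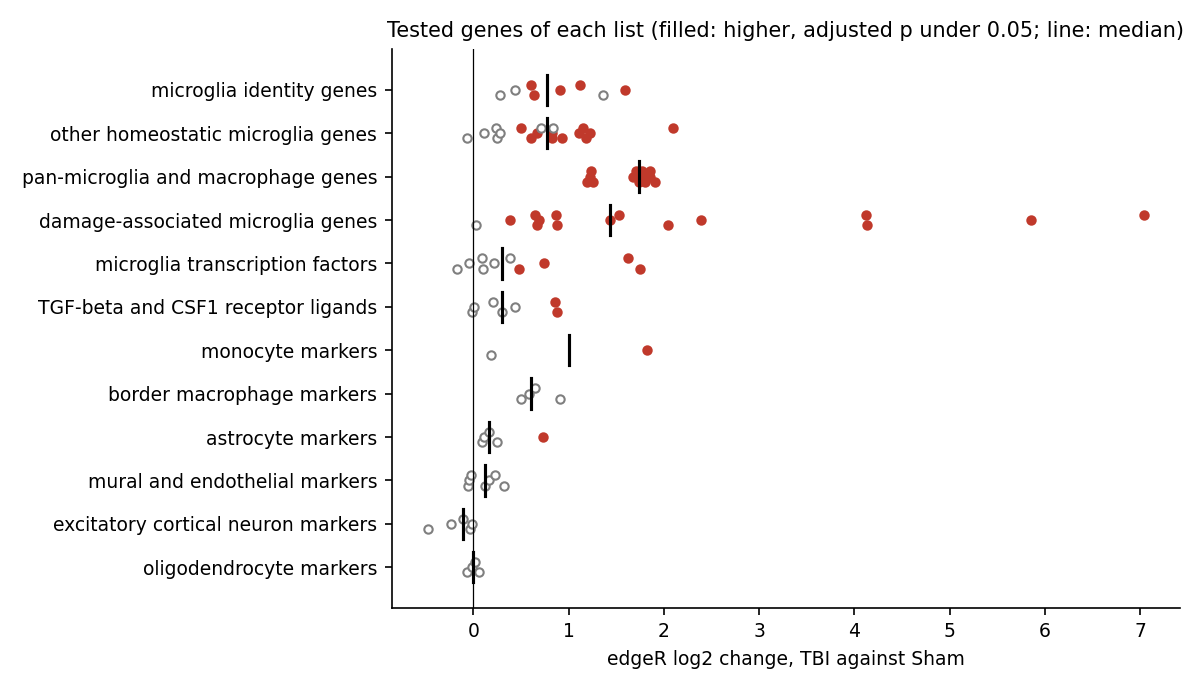
Log2 change (edgeR) of each tested gene in 12 lists, with called genes filled and the list median as a line. The identity genes and the other homeostatic genes share a median of 0.77, the pan-microglia genes have 1.74, and the oligodendrocyte and excitatory neuron lists lie around 0.

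Upstream factors moved in part. Of 10 tested microglial transcription factors of 11, 4 rose and 6 did not pass (median log2 change 0.30). Spi1, which encodes PU.1, rose from 0.873 ± 0.149 to 2.77 ± 0.701 FPKM (edgeR adjusted p = 0.00088) and Irf8 from 0.585 ± 0.0628 to 2.04 ± 0.507 FPKM (adjusted p = 0.00037). Maf rose 1.39-fold (adjusted p = 0.022), a call lost without TBI replicate 1, 2 or 3 or Sham replicate 2 or 5 (adjusted p = 0.051 to 0.060). Of 7 ligand and activator genes of the TGF-beta and Csf1r pathways 2 rose and 5 did not pass (median 0.30). Tgfb1, a TGF-beta ligand, went from 1.07 ± 0.136 to 2.03 ± 0.373 FPKM (adjusted p = 0.0067) and Csf1 from 2.84 ± 0.248 to 5.32 ± 1.27 FPKM (adjusted p = 0.012).

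Among 8 partner genes of the member proteins, 5 were tested, and Tyrobp alone passed (median -0.08). Cx3cl1, which encodes fractalkine, also sat on separate levels, at 167, 18.5, 10.8, 20 and 19.4 FPKM in TBI and at 182, 198, 186, 18.3 and 19.9 FPKM in Sham, and did not pass (log2 change -1.4, edgeR adjusted p = 0.55). Without TBI replicate 1 its log2 change was -2.86 (adjusted p = 0.098). Selp and Sele, the vascular selectins that bind Selplg, were at 0.0302 FPKM or less in every library and were not tested. Of 16 family relatives 7 were tested, 1 rose and 6 did not pass (list median 0.31).

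By the rule for likeness, the profiles nearest to each gene that rose were taken as those with the smallest root mean square difference over the 10 libraries in log2(FPKM + 1) each gene centred on its own Sham mean and averaging 1 FPKM or more, a scale that compresses low genes. For Fcrls they were Fcgr3 (0.134), Itgb2 (0.139) and Ctsd (0.145), and for Gpr34 Cd180 (0.057), Plek (0.080) and Myo1f (0.081). For Cx3cr1 they were Tgfbr2 (0.102), Ltc4s (0.102) and Lgmn (0.118), for Tmem119 Clu (0.080), Dhrs1 (0.081) and Crybb1 (0.089), and for Sall1 Rgs10 (0.067), Gsdmd (0.073) and Capn3 (0.073). Nearness on this scale was not an equal change. The edgeR log2 change was 2.23 for Cd180, 1.13 for Plek and 1.96 for Myo1f, against 1.12 for Gpr34. It was 0.52 for Rgs10, 0.84 for Gsdmd and 0.80 for Capn3, against 0.61 for Sall1.

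Markers of other cells were counted beside the identity genes, and their part in the result was not tested. The 7 monocyte markers summed to 4.97 to 13.2 FPKM in TBI and 2.43 to 5.39 FPKM in Sham. Of these, Ccr2 was at most 0.155 FPKM and Chil3 at most 0.0872, with Chil3 at 0 counts in all Sham libraries. Of the 2 tested, Ly6c2 did not pass and S100a4 rose from 2.19 ± 1.36 to 7.96 ± 2.97 FPKM (edgeR adjusted p = 0.026), a call lost without TBI replicate 1, 2 or 3 or Sham replicate 2, 3, 4 or 5 (0.058 to 0.076). The 6 border macrophage markers summed to 3.24 to 7.42 FPKM in TBI and 2.88 to 3.62 FPKM in Sham, and of 4 tested 0 passed, Mrc1 coming nearest at 1.12 ± 0.303 against 0.725 ± 0.0640 FPKM (adjusted p = 0.089; 0.017 in DESeq2), followed by Pf4. At an unadjusted p under 0.05, 3 of the 4 (Mrc1, Lyve1 and Pf4) would be counted. Ms4a7, of the same list and below the expression filter, was at 0.371, 0.307, 0.356, 0.192 and 0.484 FPKM in TBI and at 0.0555, 0.0304, 0.0677, 0.0583 and 0.0173 FPKM in Sham. Its TBI libraries all lay above its Sham libraries, on 532 and 76 counts in all.

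The 4 markers of plasmacytoid dendritic cells, which also carry Siglech, summed to 0.844 to 1.82 FPKM in TBI and 0.550 to 1.60 FPKM in Sham, and none was tested. Within that sum Tlr9 was at 0.622 ± 0.198 FPKM in TBI and 0.290 ± 0.0373 in Sham without overlap, and Ly6d at 0.469 ± 0.320 and 0.680 ± 0.394 FPKM with overlap. The 8 lymphocyte and NK cell markers summed to 1.07 to 6.01 FPKM in TBI and 1.70 to 7.36 FPKM in Sham. Most of that was Cd4, the 1 tested gene, which did not pass (3.42 ± 1.59 against 3.53 ± 2.44 FPKM, edgeR adjusted p = 0.97), and Cd3e, Cd3g, Nkg7 and Ncr1 were at most 0.141 FPKM. Trac was at 0.403 ± 0.292 FPKM in TBI and 0.318 ± 0.190 in Sham, with overlap. Cd8a held 33 counts over the TBI libraries and 16 over the Sham libraries, and Klrb1c held 23 and 0. The 6 neutrophil markers summed to 0.144 to 0.809 FPKM in TBI (median 0.571) and to 0 to 0.825 FPKM in Sham (median 0), with Ly6g at 0 in all libraries and the highest Sham sum in replicate 4. The 6 proliferation genes summed to 1.65 to 3.10 FPKM in TBI and 1.13 to 1.9 FPKM in Sham, and 4 of the 5 TBI sums were above every Sham sum. Mcm2, the 1 tested, did not pass, and the other 5 had higher means in TBI with overlap, such as Mki67 at 0.455 ± 0.197 against 0.258 ± 0.0594 FPKM.

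The tissue label matched its markers, with the 5 excitatory cortical neuron markers summing to 183 to 280 FPKM over the 10 libraries. Of these 5, 0 passed in edgeR (nearest Tbr1, adjusted p = 0.34, and Neurod6, 0.46), and 0 had an unadjusted p under 0.05. Of 4 oligodendrocyte markers, Mbp and Mag among them, 0 passed, also unadjusted, and of 7 mural and endothelial markers 0 passed in edgeR and 1, Kcnj8, had an unadjusted p under 0.05, followed by Cldn5. The 5 astrocyte markers held 1 called gene, Aqp4 (18.8 ± 2.12 to 32 ± 4.45 FPKM, edgeR adjusted p = 0.0031). Aldh1l1 did not pass (edgeR adjusted p = 0.087, unadjusted p = 0.0045). Its groups did not overlap, at 15.1 ± 1.18 FPKM in TBI and 12.3 ± 0.94 in Sham. Slc1a3, Gja1 and Fgfr3 did not pass, also unadjusted, and the list median log2 change was 0.16. Gfap, a filament gene of reactive astrocytes that is not on that list, stood at 8.33, 7.66, 8.02, 4.29 and 5.59 times its Sham mean in TBI replicates 1 to 5, above the ratio of each of the 8 identity genes in the same library. Its part in the result was not tested. Total counts ran from 47.6 to 71.3 megacounts per library, at about 4 counts for each fragment.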

How the data were processed

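Total RNA of mouse cerebral cortex was sequenced in 5 TBI and 5 Sham libraries. Cutadapt 1.9, HISAT2, StringTie and the mm10 genome are named in the submitters' processing notes; the counting tool is not given in the sources used here. The authors deposited 1 table with estimated counts per gene and FPKM for each library, per the file headers. Counts were whole numbers, and those from 1 to 12 were multiples of 4 in 42.6% of cases (25% if even), so a fragment was worth about 4 counts. Genes with at least 0.5 FPKM in at least 5 of 10 libraries were tested on the counts with edgeR 4.0.16 (TMM, quasi-likelihood, 5 against 5, no covariate; R 4.3.3), with Benjamini-Hochberg adjustment over all of them. SEs and intervals of log2 changes are approximate, taken from the test. The common biological coefficient of variation was 20.9%.

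Pairs of genes were compared with an exact permutation test on log2(FPKM + 1). Alternatives were DESeq2 1.42.0 and its size factors, limma 3.58.1 on log2 FPKM with pseudocounts of 1 and 0.1, other filters, counts divided by 4, a replicate block, and leaving out each library. The edgeR step was tested on simulated data. The 8 genes and all lists were chosen with earlier results of these data known. From each list the text names at most 4 called genes, ranked by size of change; a list with no call gives its 2 lowest p-values. Some named results are not reported here. The 3 nearest profiles are named for each called identity gene. P2ry12, Cx3cl1, Gfap and the other uncalled or untested list genes given with values were chosen after their values were seen. The design text gives 5 mice for each group, and each library was taken as 1 mouse.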

Additional observations from a re-analysis of the deposited data

How the results depend on the processing

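Of 143 alternative values for the 8 identity genes, 142 kept their direction and side of the threshold, 0 reversed, and 1 lost its call: Cx3cr1 with the replicate block (log2 change 0.90, edgeR adjusted p = 0.077). The log2 change over the alternatives ran from 1.48 to 1.69 for Fcrls, 1.06 to 1.64 for Olfml3 (adjusted p 0.069 to 0.30), 0.34 to 0.58 for Selplg and 0.19 to 0.33 for Siglech, which was not tested with a filter of 2 FPKM. Genes called higher numbered 582, against 337 with a filter of 2 FPKM, 373 with the replicate block and 441 to 659 with 1 library left out. Genes called lower numbered 77, against 43 without the filter, 48 with a filter of 2 FPKM, 229 in DESeq2, 42 and 39 in limma with pseudocounts of 1 and 0.1, 29 with the replicate block and 37 to 84 with 1 library left out. The causes of these shifts were not tested.

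Whether replicate numbers pair the libraries was not settled. Deviations of same-numbered libraries correlated between -0.109 and 0.133, and 2 of 5 correlated best with their own number. These 5 correlations had no reference to be set against, so they do not decide it. With sign flips within the replicate pairing 0 of 28 gene pairs passed, since 5 pairs cannot give p below 0.062. The block also ended the calls of Maf, Csf1, Ltc4s and Gsdmd (adjusted p = 0.095, 0.094, 0.070 and 0.051). Of 849 alternative values for 48 other named genes 13 reversed, all in genes that were not called: Cd4 was at 0.04 and 0.06 in limma with pseudocounts of 1 and 0.1 and at -0.31 to 0.35 with 1 library left out, and over the latter Mbp was at -0.17 to 0.02, Mag at -0.04 to 0.16 and P2ry12 at -0.22 to 0.08. Markers went untested for lying below the FPKM filter; some are sparse (Chil3, 20 counts) and some are not (Mki67, 1520 counts in TBI).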
